A study of Homo sapiens with 29 samples.

Results

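Chromatin accessibility with induced wild-type FOXA1 was compared with that with induced C258A-FOXA1 in 4 of the 29 ATAC-seq libraries of the series, all given doxycycline (Dox) and the vehicle DMSO. The members were the peak lists labelled with Dox and DMSO: WT-FOXA1 replicates 1 and 2, and C258A-FOXA1 replicates 1 and 2. ATAC-seq uses a transposase to cut open chromatin, and each library is represented here by the list of peaks that the authors called in it. Every library came from 22Rv1, a human prostate cancer cell line. Both engineered lines overexpressed Y36C-PHF5A, a form of a spliceosome subunit, and carried a Dox-inducible transgene for either wild-type FOXA1 or C258A-FOXA1, in which a cysteine is replaced by alanine. DMSO was given at 0.1% for 3 h. The labels do not state the dose or length of Dox treatment, whether a line was 1 clone or a pool, or whether replicates were separate cultures, so the p-values below measure only the spread between these libraries. No label says that endogenous FOXA1 was removed. Line and construct coincide, so a difference between the 2 lines and a difference between the 2 proteins cannot be told apart.

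FOXA1 is a forkhead transcription factor and a pioneer factor: it binds its sites in closed chromatin and opens them for other factors, such as the androgen receptor in prostate cells. The replaced cysteine lies in the forkhead DNA-binding domain and is the residue that the covalent ligand WX-02-23 engages in wild-type FOXA1. The comparison asks whether the C258A protein opens the same chromatin as the wild-type protein before any ligand is added.

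Further libraries served as independent readings of the same regions. They were WT-FOXA1 without Dox (DMSO, 2 libraries), each line with Dox and either WX-02-23 at 20 µM or pladienolide B (PladB), a splicing inhibitor, at 100 nM (8 libraries), and 15 libraries of parental 22Rv1 cells under 5 treatments. All parental peak names point to another processing folder than the engineered ones, so parental cells and processing run cannot be told apart.

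The 4 lists were of like length and depth. WT-FOXA1 held 88140 and 85009 peaks and C258A-FOXA1 held 84260 and 87171, so the lines overlapped. The background level recovered from the peak caller's fold values, a relative measure of depth, was 0.869 and 0.844 reads per base in WT-FOXA1 and 0.750 and 0.866 in C258A-FOXA1. The weakest recovered summit held 6 reads in each of the 4 lists, so regions with less signal were not detectable. The 2 no Dox lists were shorter, at 69814 and 67195 peaks. By the Jaccard index, the bases shared by 2 lists over the bases covered by either, the WT-FOXA1 replicates scored 0.693 and the C258A-FOXA1 replicates 0.702, and the 4 pairs across the lines 0.661 to 0.666. Pairs with the no Dox lists were further apart, at 0.617 to 0.625 for WT-FOXA1 and 0.600 to 0.608 for C258A-FOXA1.

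Most open chromatin was common to both lines. Merging overlapping peaks of the 4 lists gave 111111 regions, and a library was said to hold a region when 1 of its peaks overlapped it by at least 1 bp. All 4 libraries held 60681 of them (54.6%). Both WT-FOXA1 libraries held 71238 regions, of which 94.1% had a peak in at least 1 C258A-FOXA1 library. Both C258A-FOXA1 libraries held 70961 regions, of which 94.2% had a peak in at least 1 WT-FOXA1 library.

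Regions restricted to a line were few. Both WT-FOXA1 and neither C258A-FOXA1 library held 4214 regions (3.79% of all), called WT-only here. The reverse pattern, called C258A-only, was found in 4122 regions (3.71%). With peaks of at least 6-fold alone, the counts were 2400 WT-only and 3556 C258A-only. A further 6504 regions were held by exactly 1 library of each line, at 1240 to 2068 for each such pair of libraries. Regions seen in a single library numbered 12169 for WT-FOXA1 and 10920 for C258A-FOXA1. No test was made of these counts, since 2 against 2 libraries allow no permutation p below 0.333.

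Single lists named more line-restricted regions than their replicates held. Of 11203 regions in WT-FOXA1 replicate 1 and in neither C258A-FOXA1 library, 37.6% had a peak in WT-FOXA1 replicate 2. Of 9394 regions defined by WT-FOXA1 replicate 2, 44.9% had a peak in replicate 1. The corresponding shares in the C258A-FOXA1 line were 46.3% of 8905 and 40.2% of 10259 regions. Regions that the other line also held in both libraries were found again far more often, in 94.3% to 95.8% of cases. A peak seen once in a line and absent from the other was thus absent from its own replicate in more than 1 of 2 cases, in every one of the 4 readings.

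The line-restricted regions were weak and narrow. Strength was read as the percentile of the authors' p-value within a list. WT-only regions had median percentiles of 20.8 and 20.6 in the 2 WT-FOXA1 lists, and C258A-only regions 21.8 and 21.6 in the 2 C258A-FOXA1 lists. Regions held by all 4 libraries had medians of 63.2 to 65.0. The authors' fold enrichment over local background had medians of 5.63 and 5.66 at WT-only regions, 6.13 and 5.90 at C258A-only regions, and 8.67 to 9.005 at regions held by all 4. Where the reads at the summit could be recovered, their median was 10 in both restricted sets and in each list, against the lowest called summit of 6 reads. The median width was 261 bp for WT-only, 265 bp for C258A-only and 440 bp for commonly held regions.

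Strong peaks were seldom restricted to a line. In the top 25% of a list by p-value, WT-only regions numbered 0 of 21869 in WT-FOXA1 replicate 1 and 1 of 21051 in replicate 2. C258A-only regions numbered 1 of 20896 and 2 of 21617 in the top 25% of the C258A-FOXA1 lists. All 4 libraries held 99.89% to 99.97% of these strong regions in every list. Presence of a peak is a blunt measure there, since a strong region could lose signal and still be called. In the lowest 25%, 11.7% and 12.7% of the WT-FOXA1 regions were WT-only and 11.9% and 11.0% of the C258A-FOXA1 regions were C258A-only, while all 4 libraries held 27.4% to 34.0%.

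**Figure D1:**
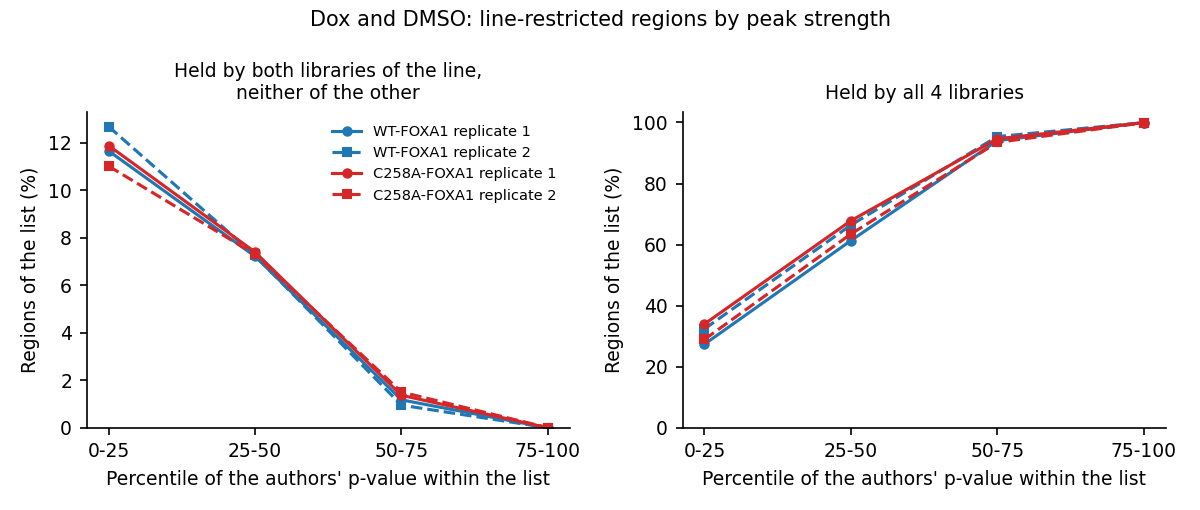
Share of each list's regions (y axis, %) that were restricted to its line (left) or held by all 4 Dox and DMSO libraries (right), by band of the authors' p-value within the list (x axis, percentile). Lines join the values of 1 library. In all 4 lists the restricted share fell from 11.0% to 12.7% in the weakest 25% to 2 regions or fewer in the strongest 25%.

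The more direct reading of pioneer activity is whether chromatin that opened with induced WT-FOXA1 was also open with induced C258A-FOXA1. Every library labelled with Dox carries a FOXA1 transgene. Effects of Dox itself and of the induced protein thus cannot be told apart in regions that both lines opened. Over the 115050 regions of the 4 lists and the 2 no Dox lists, 13280 (11.5%) had a peak in both WT-FOXA1 libraries with Dox and in neither without Dox. Regions of the reverse pattern numbered 1197 (1.04%). The no Dox lists were shorter than the Dox lists. With 1 library on each side and all lists at 1 length of 67195 peaks, opened regions averaged 13669 and closed regions 12578. As deposited, these averages were 25450.5 and 7294. Lists of equal length bring the 2 counts near each other by construction, so the source of the imbalance was not tested. Of the 13280 opened regions, 71.2% had a peak in C258A-FOXA1 replicate 1 and 73.6% in replicate 2, or 72.4% ± 1.7 (SD, n = 2). Both C258A-FOXA1 libraries held 8457 of them, 1 library held 2314 and neither held 2509. In parental cells given DMSO, which carry no transgene and have no Dox in their labels, the same regions had a peak in 24.1% ± 1.7 (SD, n = 3).

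The reading from the C258A-FOXA1 line gave a like picture. Set against the same 2 no Dox libraries, which belong to the WT-FOXA1 line, 14837 regions (12.9%) had a peak in both C258A-FOXA1 libraries and in neither no Dox library. WT-FOXA1 replicates 1 and 2 each held 67.5% of these. The reverse pattern, a peak in both no Dox and neither C258A-FOXA1 library, was found in 1988 regions (1.73%). Single libraries at 1 length gave 15383.5 opened and 14159.5 closed regions on average, again near each other by construction. An uninduced C258A-FOXA1 library was not analysed here, so what the C258A-FOXA1 line held before induction was not measured.

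The share that a further WT-FOXA1 replicate itself would reach is the scale for this value, and it was read with the definition split. Regions were defined from 1 WT-FOXA1 Dox library with a peak and 1 no Dox library without, and read in the libraries left out of the definition. The 4 possible definitions gave 23731 to 27213 regions. The left-out WT-FOXA1 replicate held 60.8% to 66.4% of them. The C258A-FOXA1 libraries held 54.4% to 60.8%, each of the 2 libraries counted in each definition. The left-out no Dox library held 13.6% to 18.8%. The mean of the C258A-FOXA1 libraries minus that of the WT-FOXA1 replicate was -6.98 to -4.92 percentage points, and minus that of the no Dox library 37.4 to 45.6 points. These 4 definitions share libraries and are not independent, so they carry no test.

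Defined the other way, regions with a peak in 1 C258A-FOXA1 library and none in 1 no Dox library numbered 24292 to 27748. The left-out C258A-FOXA1 replicate held 64.1% to 70.1%, the WT-FOXA1 libraries 54.2% to 58.5% and the left-out no Dox library 12.4% to 16.8%. WT-FOXA1 minus the left-out C258A-FOXA1 replicate was -12.6 to -8.96 points here. In both readings each library of the other line was below the left-out replicate of the same definition and above the left-out no Dox library.

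**Figure D2:**
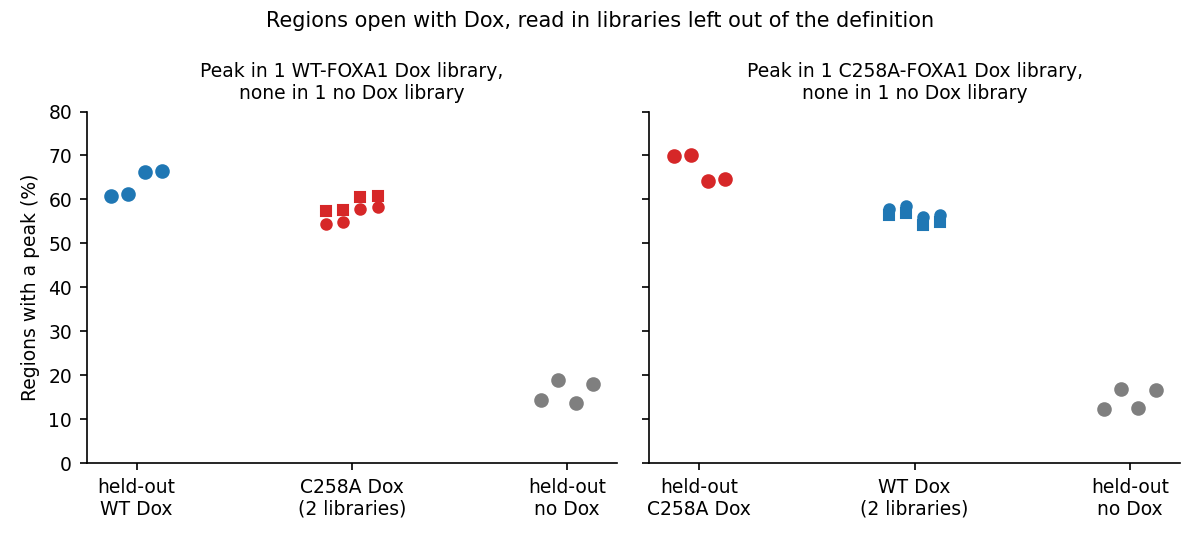
Share of regions with a peak (y axis, %) for regions with a peak in 1 Dox library and none in 1 no Dox library, read in the libraries left out of that definition; each point is 1 of 4 definitions, and in the middle columns circles are replicate 1 and squares replicate 2. With regions defined in WT-FOXA1 (left), C258A-FOXA1 sits at 54.4% to 60.8%. The left-out WT-FOXA1 replicate is at 60.8% to 66.4% and the left-out no Dox library at 13.6% to 18.8%. With regions defined in C258A-FOXA1 (right), WT-FOXA1 sits at 54.2% to 58.5%. The left-out C258A-FOXA1 replicate is at 64.1% to 70.1% and the left-out no Dox library at 12.4% to 16.8%.

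The lines were closest in the top band of peak strength, where the left-out replicate was at its ceiling. In the top 25% of the WT-FOXA1 lists, 447 to 512 opened regions were found per definition. The left-out WT-FOXA1 replicate held 100% of these and the 2 C258A-FOXA1 libraries held 99.4% to 99.7% on average, while the left-out no Dox library held 5.13% to 8.81%. Between the 50th and 75th percentile the shares were 96.2% to 97.0% for the WT-FOXA1 replicate and 89.8% to 92.0% for C258A-FOXA1. Between the 25th and 50th percentile they were 71.6% to 76.7% and 63.9% to 67.3%, and in the lowest 25% they were 43.9% to 50.1% and 40.8% to 43.9%. The lines were thus further apart on average in both middle bands than in the weakest. The C258A-FOXA1 line had more strong regions without a peak in a no Dox library, at 1121 to 1201 per definition in its top 25%, and WT-FOXA1 held 99.1% to 99.2% of them on average.

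**Figure D3:**
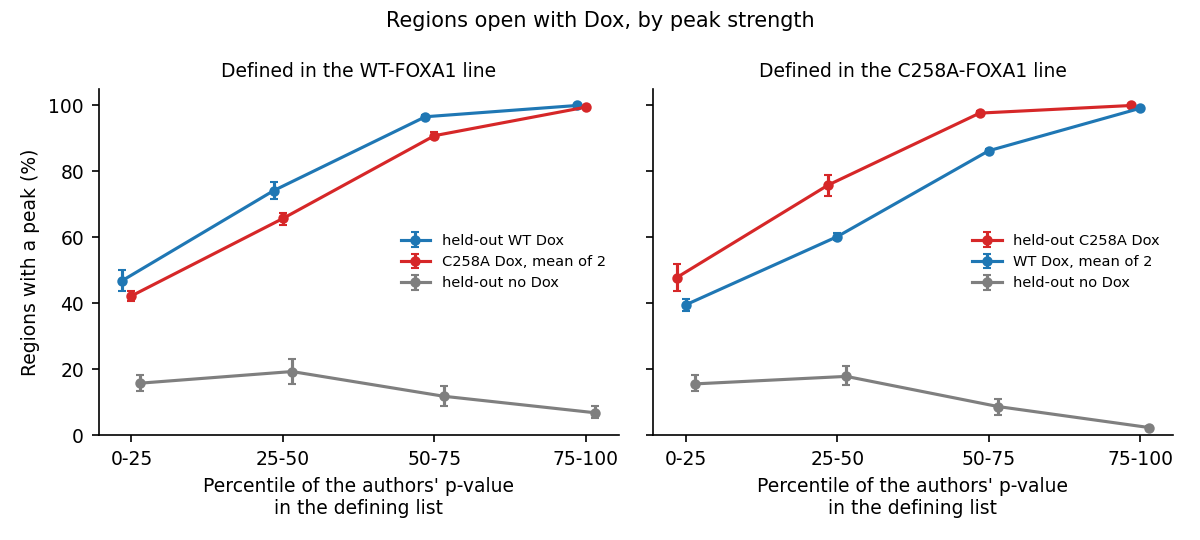
Share of opened regions with a peak in left-out libraries (y axis, %) by band of the authors' p-value in the defining list (x axis, percentile); points are means over 4 definitions and bars run from the lowest to the highest. In the top 25% both lines reach 99.1% or more on average whichever line defined the regions, and the left-out no Dox library reaches at most 8.81%.

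Regions without a peak after induction gave a less clear reading. Of the 1197 regions with a peak in both no Dox libraries and neither WT-FOXA1 Dox library, 38.7% and 41.6% had a peak in C258A-FOXA1 replicates 1 and 2, or 40.1% ± 2.1 (SD, n = 2). With left-out libraries, the no Dox replicate held 35.4% to 45.1% of such regions and the WT-FOXA1 replicate 35.2% to 46.7%, so as deposited the 2 ranges overlapped almost fully. Closed regions defined with C258A-FOXA1 had a peak in 40.7% to 50.9% for the no Dox replicate and 32.0% to 41.3% for the left-out C258A-FOXA1 library. The mean of the WT-FOXA1 libraries at these was 45.6% to 50.8%. Of the 1988 regions with a peak in both no Dox and neither C258A-FOXA1 library, WT-FOXA1 held 56.7% ± 4.4 (SD, n = 2). With the 6 lists at 1 length of 67195 peaks, the no Dox replicate held 51.3% to 53.4%, the WT-FOXA1 replicate 29.6% to 33.7% and C258A-FOXA1 28.6% to 29.8%. With the same lists of equal length, for opened regions defined with WT-FOXA1, the WT-FOXA1 replicate held 58.8% to 61.3%, C258A-FOXA1 56.0% to 57.7% and the left-out no Dox library 16.0% to 18.9%. For opened regions defined with C258A-FOXA1, the C258A-FOXA1 replicate held 65.3% to 67.0%, WT-FOXA1 49.7% to 51.3% and the left-out no Dox library 13.4% to 15.2%. At opened regions the lines were thus closer with lists of equal length when WT-FOXA1 defined them. They were further apart when C258A-FOXA1 defined them.

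Some opened regions were held in every induced library. In all 12 Dox libraries of both lines, whatever the treatment, and in neither no Dox library, 3324 regions had a peak. Of these, 2445 (73.6%) had no peak in any of the 15 parental libraries and 193 (5.81%) had one in all 15. The 4 strongest of the former by mean percentile in the 4 Dox and DMSO lists were chosen after their values were seen. They lay, in build hg19, at chr9:18085312-18085945, chr1:99371455-99372068, chr22:28442260-28442979 and chr7:28736181-28736766. At the first, the authors' fold enrichment was 15.7 and 18.3 in the WT-FOXA1 lists and 18.8 and 18.9 in the C258A-FOXA1 lists. At the second it was 16.8 and 17.5 in WT-FOXA1, and 18.6 and 16.6 in C258A-FOXA1. Fold values were made within each list and serve only to show that these were strong peaks in all 4.

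The restricted sets were also read without Dox. Of the 4214 WT-only regions, 2509 (59.5%) had no peak in either no Dox library, 913 had a peak in 1 and 792 (18.8%) in both. Of the 4122 C258A-only regions, 3263 (79.2%) had none, 568 had a peak in 1 and 291 (7.06%) in both. Per library, the no Dox lists held 31.7% and 27.6% of the WT-only regions and 15.7% and 12.2% of the C258A-only regions, and the 2 sets did not overlap. With lists of equal length the shares without any no Dox peak were 39.9% for WT-only and 70.6% for C258A-only regions. Leaving out 1 defining library loosens the rule for each set in a different way. Defined without WT-FOXA1 Dox and DMSO replicate 1, the order turned, at 69.7% for WT-only and 64.2% for C258A-only regions. Without WT-FOXA1 replicate 2 the shares were 69.8% and 69.5%. Without C258A-FOXA1 replicate 1 they were 50.7% and 80.2%, and without C258A-FOXA1 replicate 2 48.4% and 79.8%. The no Dox libraries come from the WT-FOXA1 line, so line and protein cannot be told apart in this order.

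Parental cells were read in the same way. WT-only regions had a peak in 39.3% to 52.1% of cases over the 15 parental libraries (median 47.9%), and C258A-only regions in 22.7% to 32.3% (median 28.2%). WT-only regions were the more often held in each of the 15, by 16.6 to 22.3 percentage points. No parental library held 1305 WT-only (31.0%) and 2363 C258A-only regions (57.3%). All 15 held 840 WT-only (19.9%) and 399 C258A-only regions (9.68%). Regions held by all 4 Dox and DMSO libraries had a peak in 83.3% to 87.6% of cases in the same libraries.

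Joining both readings sorts the members further. Regions with no peak in the no Dox libraries or in any parental library, and so seen only in induced cells, made up 1267 of the WT-only (30.1%) and 2330 of the C258A-only regions (56.5%). Regions with a peak in both no Dox libraries and in all 3 parental DMSO libraries, and so missing from the induced C258A-FOXA1 line alone among these, numbered 590. The matching count for WT-FOXA1 with Dox was 192 of the C258A-only regions. Of the regions held by all 4 Dox and DMSO libraries, 5825 (9.60%) had no peak in any no Dox or parental library. A peak in both no Dox and all 3 parental DMSO libraries was found for 47226 of them (77.8%). They were stronger peaks than either restricted set, and the part of peak strength in these counts was not tested. The no Dox libraries come from the WT-FOXA1 line, so line and protein cannot be told apart in the order of 590 and 192.

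Whether the restriction to a line held in libraries that had not defined it was tested in the 8 treated Dox libraries. WX-02-23 engages the cysteine that C258A-FOXA1 lacks. Under WX-02-23, line restriction and a ligand effect on 1 line thus cannot be told apart. In WT-FOXA1 with WX-02-23 the mean shares of WT-only and C258A-only regions were 28.2% and 12.7%. Without Dox they were 29.6% and 13.9%. WT-only regions had a peak in 31.4% and 24.96% of cases in WT-FOXA1 with WX-02-23, and 35.9% and 63.2% with PladB. In the C258A-FOXA1 line the shares were 20.3% and 37.0% with WX-02-23, and 16.2% and 18.2% with PladB. The lines were apart under PladB and overlapped under WX-02-23. The mean difference, WT-FOXA1 minus C258A-FOXA1, was 15.9 points. Permuting the line labels within treatment gave an exact p of 0.222, both raw and adjusted (two-sided). Defining the set without 1 of the 4 Dox and DMSO libraries lowered the difference to 8.50 (WT-FOXA1 replicate 1), 6.98 (WT-FOXA1 replicate 2), 9.68 (C258A-FOXA1 replicate 1) and 8.22 points (C258A-FOXA1 replicate 2).

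C258A-only regions followed their line more closely over both treatments together, but not under PladB alone. They had a peak in 49.9% and 72.0% of cases in C258A-FOXA1 with WX-02-23, and 41.4% and 45.3% with PladB. In WT-FOXA1 the shares were 14.3% and 11.2% with WX-02-23, and 12.3% and 33.5% with PladB. All 4 C258A-FOXA1 values lay above all 4 WT-FOXA1 values. The difference, WT-FOXA1 minus C258A-FOXA1, was -34.3 points, at -48.2 under WX-02-23 and -20.5 under PladB. Under PladB the difference for WT-only regions was 32.3 points. The exact permutation p (two-sided) was 0.0556, which is the lowest value 36 arrangements can give, and the Benjamini-Hochberg adjusted value over 3 tests was 0.0833. Defined without C258A-FOXA1 replicate 1 or 2 of the Dox and DMSO libraries, the difference was -20.4 and -21.7 points.

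List lengths differed among the treated libraries, from 62832 peaks in WT-FOXA1 with WX-02-23 replicate 2 to 92658 in C258A-FOXA1 with WX-02-23 replicate 2. With WX-02-23, regions held by all 4 Dox and DMSO libraries had a peak in 82.9% on average in WT-FOXA1 and 94.0% in C258A-FOXA1. With PladB these means were 94.2% and 92.7%. The difference between the 2 sets within a library compares regions of 1 list. WT-only minus C258A-only was 13.8 to 29.7 points in the 4 treated WT-FOXA1 libraries and -35.0 to -25.2 points in the 4 treated C258A-FOXA1 libraries. Each treated library thus held more of the set defined in its own line. The lines differed by 50.3 points, by 47.7 within WX-02-23 and by 52.8 within PladB. The exact permutation p was again 0.0556 (two-sided) and the adjusted p 0.0833, and no arrangement of these libraries can pass 0.05. Defined without C258A-FOXA1 replicate 1 or 2 of the Dox and DMSO libraries, the lines differed by 30.04 and 29.9 points. The no Dox libraries of the WT-FOXA1 line gave 16.0 and 15.4 points, so the uninduced line leaned to the WT-only set as well. The 15 parental libraries gave 16.6 to 22.3 points. The lean to the WT-only set was thus not particular to the WT-FOXA1 line.

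Within treatments the WT-only set behaved unevenly. Under WX-02-23 the mean share of WT-only regions with a peak was 28.2% ± 4.5 in WT-FOXA1 and 28.7% ± 11.8 in C258A-FOXA1 (SD, n = 2 each), a difference of -0.50 points. Under PladB it was 49.5% ± 19.3 and 17.2% ± 1.4 (SD, n = 2 each), a difference of 32.3 points. Without the second WT-FOXA1 PladB library the difference over both treatments fell to 7.81 points. With lists of equal length it was 23.5 points, with an exact permutation p of 0.0556. Whether the line difference itself differed between treatments was not tested.

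**Figure D4:**
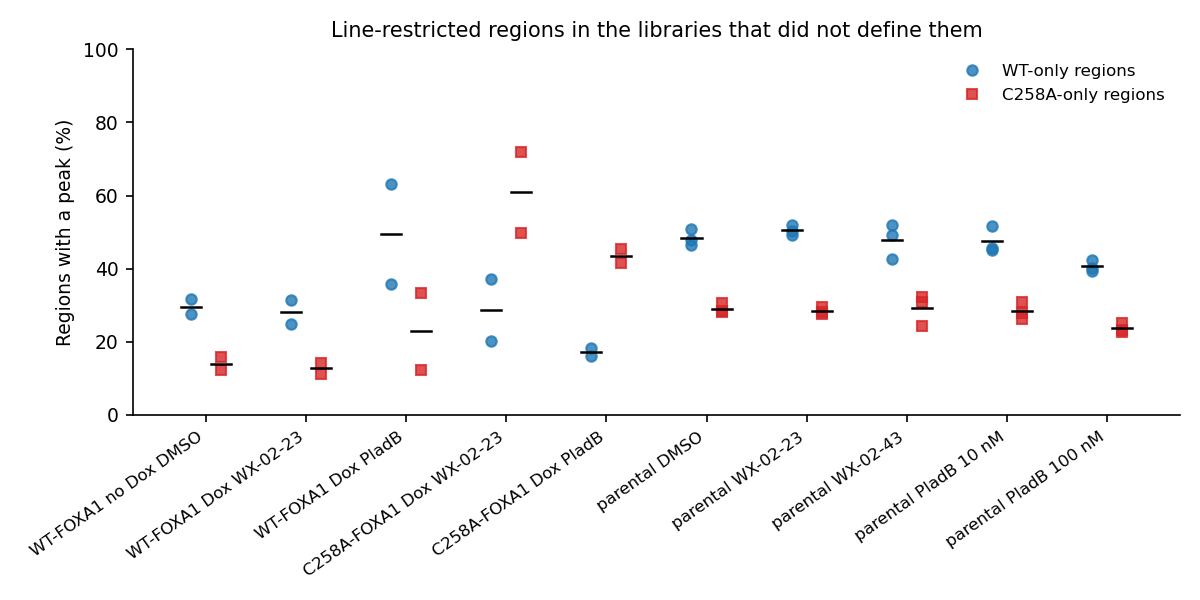
Share of WT-only (circles) and C258A-only (squares) regions with a peak (y axis, %) in the 25 libraries that did not define them; each symbol is 1 library and each bar a group mean. WT-only regions are the more often held in every parental and WT-FOXA1 library, and C258A-only regions in all 4 treated C258A-FOXA1 libraries.

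Few regions were restricted to a line in every induced library. All 6 WT-FOXA1 and none of the 6 C258A-FOXA1 Dox libraries held 112 regions (0.101% of all). The reverse was found in 281 regions (0.253%). These were 2.66% of the WT-only and 6.82% of the C258A-only regions. The rule needs a peak with WX-02-23 too, the ligand that engages the cysteine present in wild-type FOXA1 alone. The WX-02-23 lists held 67815 and 62832 peaks in WT-FOXA1, and 76645 and 92658 in C258A-FOXA1. The rule was thus harder to meet for the 112 than for the 281 under this ligand, and the 2 counts are not on 1 scale. Of the 112, 95 (84.8%) had no peak in a no Dox library and 79 (70.5%) none in any parental library. Of the 281, the counts were 261 (92.9%) and 227 (80.8%). Their medians of 31.6 to 34.7 by percentile were above those of the whole restricted sets but below the middle of the lists.

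The strongest of the 112 lay at chr7:85297136-85297573, with the authors' fold at 10.8 and 13.0 in the 2 WT-FOXA1 lists and a mean percentile of 71.3. It was followed by chr14:45642967-45643416 with folds of 9.25 and 10.7, and chr7:78961802-78962408 with folds of 11.4 and 7.96. The next 3 were chr11:46859123-46859684, chr15:70986146-70986669 and chr4:122016223-122016558, with mean folds of 8.88, 8.84 and 8.91. None of the 6 had a peak in any no Dox or parental library. All were thus seen in induced WT-FOXA1 cells alone.

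The strongest of the 281 lay at chr10:54584649-54585257, with folds of 11.9 and 11.9 in the 2 C258A-FOXA1 lists and a mean percentile of 71.8. The region at chrX:145342920-145343386 had a mean fold of 11.9, and that at chr3:4498232-4498806 had 10.8 and 11.3. The next 3 were chr9:11852113-11852470, chr13:82698623-82699093 and chr12:129631658-129632072, with mean folds of 10.8, 10.5 and 10.1. None of these 6 had a peak in any no Dox or parental library either. Coordinates are of build hg19, and no gene or motif was assigned to them.

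The 2 sets were spread differently over the chromosomes. WT-only regions made up 2.54% to 5.40% of a chromosome's regions (median 3.69%) and C258A-only regions 1.36% to 6.03% (median 3.76%). C258A-only regions were the more numerous on 10 of the 24 chromosomes. Chromosome 4 held 370 C258A-only against 217 WT-only regions, 5.81% and 3.41% of its regions. Chromosome X held 151 against 94, or 5.31% and 3.31%, and chromosome Y 19 against 8. Chromosome 19 leaned the other way with 54 against 108, or 1.36% and 2.72%, as did chromosome 17 with 91 against 135 and chromosome 18 with 100 against 143. Regions per Mb of the span covered by peaks were 67.4 on chromosome 19 and 53.4 on chromosome 17, and 18.7 on chromosome X and 5.59 on chromosome Y. Chromosomes 4 and 18 lean opposite ways at 33.3 and 34.0 regions per Mb, and chromosome 9, at 31.7, held 166 of each set. Base composition and copy number were not analysed here, and their part in this was not tested.

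Of the regions restricted in all 12 libraries, chromosome 4 held 26 of the 281 and 6 of the 112, chromosome 13 held 20 and 2, chromosome X 10 and 0, chromosome 18 held 7 and 3, and chromosome 19 held 2 and 5. The first set is the larger on the whole, and several of these counts are small. In the whole restricted sets chromosome 13 held 163 C258A-only and 146 WT-only regions. Whether the leans differ from those of the whole restricted sets was not tested. No single stretch held most members of either set. Among 586 windows of 5 Mb with at least 50 regions, the median share was 3.62% for C258A-only and 3.63% for WT-only regions. The highest share of C258A-only regions was 14.9%, 11 of 74 regions on chromosome X between 5 and 10 Mb, where 1 region was WT-only. The next was 14.3%, 10 of 70, between 30 and 35 Mb of the same chromosome, with 2 WT-only regions. For WT-only regions the highest was 10.6%, 12 of 113 on chromosome 8 between 45 and 50 Mb, where 6 were C258A-only. These windows were chosen after their values were seen.

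**Figure D5:**
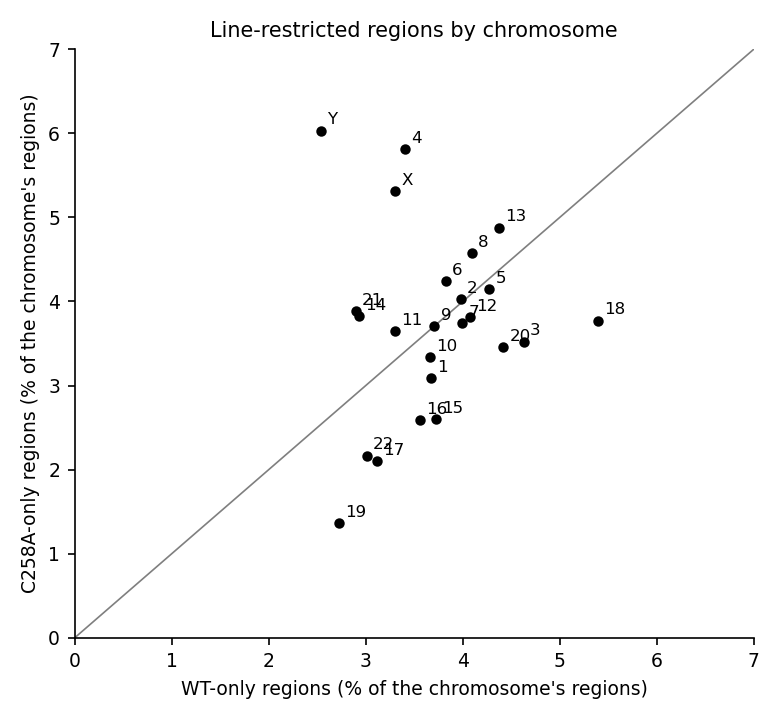
WT-only (x axis) and C258A-only regions (y axis) as a share of all regions of each chromosome (%); each point is 1 chromosome, and the line marks equal shares. Chromosomes 4, X and Y lie above the line with 5.31% to 6.03% C258A-only regions, and chromosome 19 lies lowest with 1.36%.

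Most restricted regions lay more than 1 kb from commonly held ones, as did most regions held by 1 library. The median distance from a WT-only region to the nearest region held by all 4 libraries was 14.04 kb, and 9.28% lay within 1 kb of one. For C258A-only regions the median was 15.4 kb and 12.2% lay within 1 kb. Regions held by 1 library had a median distance of 13.6 kb, with 14.9% within 1 kb. Distances above 100 kb were found for 4.34% of the WT-only, 7.74% of the C258A-only and 5.31% of the single-library regions. Among the 281 regions held by every C258A-FOXA1 Dox library and no WT-FOXA1 one, the median distance was 22.2 kb and 12.1% lay beyond 100 kb. Among the 112 of the reverse pattern, these values were 14.97 kb and 4.46%.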

How the data were processed

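Per the labels' protocols, a commercial ATAC-seq kit was used. Per the submitters' processing notes, the tools were Bowtie2 and MACS2 and the build was hg19. Tool versions, caller options, duplicate handling and read shifting: not given in the sources used here. Each library has 1 deposited peak list from the authors, with a score, a fold enrichment (ratio) over local background, the −log10 p-value, the −log10 q-value and the summit offset per peak. The lowest deposited −log10 q lay just above 2 in each list. Fold, p and score are within a list, so libraries were compared by presence or absence of peaks alone. The summit offset was used only for summit windows.

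Read totals were not given. Background reads per base were recovered from the even steps of the deposited fold values (tolerance 0.001) checked against a Poisson p-value to within 0.01 of the deposited −log10 p. In the 4 lists 20.0% to 22.8% of peaks lay on a step, and summit reads are known for these alone.

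Merging over the 4 lists, or over 6 with no Dox, used the autosomes, X and Y, and left out 10 peaks of the 4 lists. Shares in the 8 treated libraries were compared by exact two-sided permutation of the line labels within treatment, 36 arrangements, adjusted over 3 tests. Regions named by position were the 6 highest per direction by mean p-value percentile among those restricted in all 12 Dox libraries. Alternatives were stricter q or fold limits, lists of equal length, 50% coverage, summit windows, regions of all 29 lists, all sequences, leaving out each library, and a replicate block. Members, lists and tests were chosen with earlier results of these data known. The held-out reading with lists of equal length, the named regions held in all 12 Dox libraries, and leaving out a no Dox library were chosen after seeing the data. Genes and motifs were not analysed here, since an hg19 genome and annotation were not used. Counting and the permutation were tested on simulated data. Tools were matplotlib 3.10.9, statsmodels 0.14.6, scipy 1.17.1, pandas 2.3.3 and numpy 2.4.6 under Python 3.11.15.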

Additional observations from a re-analysis of the deposited data

How the results depend on the processing

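Over 8 results 123 alternative values were computed. No difference between the lines changed sign, while counts and shares cannot be negative and so could not. Of all the values, 89 stayed within 1.5 times a count or within the spread between libraries, and 34 moved further. For the WT-only difference in treated libraries that spread, 19.4 points, exceeded the difference of 15.9 points. No p in these designs can pass 0.05, so the p-values say nothing about stability. A fold of at least 6 gave 2400 WT-only and 3556 C258A-only regions, and 53.2% of the former had no peak without Dox. Lists of equal length put the WT-only regions without a no Dox peak at 39.9%, the C258A-only ones at 70.6%, and the opened regions held by C258A-FOXA1 at 74.3%. Summit windows gave 56.5% and 74.4% for the former 2. When peaks had to cover 50% of a region, C258A-FOXA1 held 67.3% of the opened regions. Held-out replicates gave 57.7%, and 56.8% with lists of equal length. The cause of these shifts was not tested.

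Leaving out 1 library loosens the rule by construction. WT-only regions then numbered 9558 and 11328 without WT-FOXA1 replicate 1 or 2, and 6932 and 7926 without C258A-FOXA1 replicate 1 or 2. C258A-only regions numbered 7565, 6979, 10438 and 9127 in the same order. The share without a no Dox peak ran from 48.4% to 72.4% and from 64.2% to 87.8%. The order of the 2 sets turned without WT-FOXA1 replicate 1 (69.7% and 64.2%), and they were nearly level without WT-FOXA1 replicate 2 (69.8% and 69.5%). They were further apart without C258A-FOXA1 replicate 1 (50.7% and 80.2%) or 2 (48.4% and 79.8%). The opened regions held by C258A-FOXA1 ran from 54.8% to 73.6%. The difference between the lines in treated libraries ran from 6.98 to 20.6 points for WT-only regions, from -39.6 to -20.4 for C258A-only regions, and from 29.9 to 52.7 for the 2 combined.

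With the replicate number as a block, the differences stay 15.9, -34.3 and 50.3 points by construction, and the exact permutation p was 0.375, 0.125 and 0.125, where 16 arrangements allow none below 0.125. For same-numbered Dox and DMSO libraries, nothing but the number is known to be shared. Their deviations correlated with r = -0.00088 over 111111 regions, which are not independent. With 2 libraries a line this value cannot show whether they shared a culture or a preparation. Depth limits all counts, since the weakest recovered summits held 6 reads.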
